A study of Mus musculus with 6 samples.

Results

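Mast cells and basophils are granulated hematopoietic cells that bind IgE, and here they are the cells of mouse MOC-2 tumors that carried at least 2 of 6 of their genes (Mcpt8, Fcer1a, Ms4a2, Cpa3, Gata2, Cd200r3), with a sum of at least 3 UMIs over those 6 and 0 UMIs of Cd3d, Cd3e and Cd3g. UMIs are unique molecular identifiers, each the count of 1 captured transcript. After a filter for 500 or more genes and less than 15% mitochondrial counts 13768 cells remained, and 78 of them met this rule, 0.567% with an exact 95% binomial interval of 0.448 to 0.707%. All intervals on shares and levels cover counting error only. Because the values of these 6 genes chose the cells, their levels are given as a description and no test was made on them.

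The tumors were grown from MOC-2, a mouse line of head and neck squamous cell carcinoma, placed under the skin of the rear or back of male mice. Each tumor then received an injection of vehicle (3 tumors, whose descriptions name DMSO) or of an experimental treatment (3 tumors), and was taken 24 h later. The protocol lists a copper chelate, the adenosine A3 receptor agonist 2-Cl-IB-MECA, agonists of STING, RIG-I and TLR7/8, galunisertib, an IDO inhibitor, inhibitors of arginase and nitric oxide synthase, clodronate and 4-1BB ligand, and does not say which of them the treated tumors received. Sorting by a viability dye kept live cells, an oligonucleotide tag marked each of the 6 tumors, and the pool was deposited as 1 matrix. Strain and age are not given in the sources used here, all tumors come from 1 cell line, and cells of the host and of the graft are both in the pool. Barcodes carry a suffix from 1 to 6, called a barcode set below, and no label ties a set to a tumor, so treated and vehicle tumors were not compared.

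Mast cells mature in tissue under the growth factor receptor KIT and store histamine, serglycin proteoglycan and proteases of the chymase, tryptase and carboxypeptidase families in granules, which they release when IgE bound to its receptor FcεRI is crosslinked. Basophils mature in bone marrow and circulate, share FcεRI, histamine and the transcription factor GATA2 with mast cells, make the protease MCPT8 and are a known source of interleukin 4. In mice, connective tissue mast cells are known for MCPT4, CMA1 and tryptases, and mucosal mast cells for MCPT1 and MCPT2.

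The cells were parted by the larger of 2 UMI sums, over Mcpt8 and Prss34 (basophil-side) or over Kit, Cma1, Mcpt4, Tpsb2, Tpsab1, Mrgprb1 and Mrgprb2 (mast-side). This put 73 cells on the mast side, 93.6% (85.7 to 97.9%), 3 on the basophil side, 3.85% (0.800 to 10.8%), and 2 on neither side. The label therefore holds mostly for mast cells. The sides are ranges of a sum and not cell types, and 11 mast-side cells also held Mcpt8 or Prss34. The rule's own genes were uneven, as 5 cells carried all 6, 19 carried 5, 26 carried 4, 17 carried 3 and 11 carried 2. The marker sum ran from 3 to 151 UMIs with a median of 39, so most members sat far from the threshold.

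Just inside the threshold stood 1 cell with a sum of exactly 3, and just outside stood 2 cells with 2 genes and a sum of 2. A further 25 kept cells had 3 or more UMIs from 1 of the 6 genes and were left out. Of those, 4 had Cpa3 alone (6 to 13 UMIs) with mast-side sums of 21 to 46 UMIs. Another 14 had Gata2 alone, and 4 of these 14 held Hdc, the gene of the enzyme that makes histamine, with 26 UMIs in all. The 5 cells with Mcpt8 alone, at 3 or 4 UMIs, held 0 Hdc and 0 mast-side UMIs. No cell met the marker part of the rule and failed it for CD3 counts.

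The promoters of 6 genes that lead or define these cells are printed because GATA2 is one of the rule's genes and words of the form bound by GATA factors occur in them. The sequences are from RefSeq on GRCm38.p6, 250 bases before to 50 bases after the start site, 5′ to 3′ on the gene's strand, and capitals mark matches on either strand to 4 words, which are AGATAA with its variant AGATAG, and TGATAA with its variant TGATAG. Their regions are chr14:56017714-56018013, plus strand (Mcpt1), chr14:56062261-56062560, minus strand (Mcpt4), chr14:55944626-55944925, minus strand (Cma1), chr3:20242132-20242431, minus strand (Cpa3), chr1:173227180-173227479, minus strand (Fcer1a) and chr19:11623670-11623969, minus strand (Ms4a2).
Mcpt1: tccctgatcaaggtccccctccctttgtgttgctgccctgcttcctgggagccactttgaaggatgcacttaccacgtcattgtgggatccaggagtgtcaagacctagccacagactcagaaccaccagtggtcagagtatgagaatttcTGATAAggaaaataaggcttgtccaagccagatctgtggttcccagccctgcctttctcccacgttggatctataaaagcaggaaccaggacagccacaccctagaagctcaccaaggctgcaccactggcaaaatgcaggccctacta
Mcpt4: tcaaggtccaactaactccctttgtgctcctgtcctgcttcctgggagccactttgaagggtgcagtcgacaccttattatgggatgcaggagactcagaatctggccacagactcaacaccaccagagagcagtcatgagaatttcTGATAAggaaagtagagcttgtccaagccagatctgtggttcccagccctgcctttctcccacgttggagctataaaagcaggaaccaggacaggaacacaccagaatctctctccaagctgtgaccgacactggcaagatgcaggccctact
Cma1: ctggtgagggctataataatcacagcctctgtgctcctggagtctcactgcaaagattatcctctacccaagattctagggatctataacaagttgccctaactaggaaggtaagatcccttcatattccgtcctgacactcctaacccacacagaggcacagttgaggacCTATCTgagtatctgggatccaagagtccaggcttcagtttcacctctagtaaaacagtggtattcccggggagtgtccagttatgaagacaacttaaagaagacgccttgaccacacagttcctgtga
Cpa3: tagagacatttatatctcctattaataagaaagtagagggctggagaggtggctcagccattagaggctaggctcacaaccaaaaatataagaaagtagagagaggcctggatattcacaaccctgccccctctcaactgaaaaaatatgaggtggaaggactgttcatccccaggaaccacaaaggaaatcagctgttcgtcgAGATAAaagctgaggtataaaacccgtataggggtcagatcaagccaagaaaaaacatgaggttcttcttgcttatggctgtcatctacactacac
Fcer1a: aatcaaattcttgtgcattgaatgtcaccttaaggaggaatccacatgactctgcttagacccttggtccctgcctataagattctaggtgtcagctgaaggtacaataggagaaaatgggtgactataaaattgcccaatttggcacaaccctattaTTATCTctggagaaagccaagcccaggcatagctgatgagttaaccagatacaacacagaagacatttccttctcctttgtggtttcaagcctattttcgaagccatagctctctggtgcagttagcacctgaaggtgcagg
Ms4a2: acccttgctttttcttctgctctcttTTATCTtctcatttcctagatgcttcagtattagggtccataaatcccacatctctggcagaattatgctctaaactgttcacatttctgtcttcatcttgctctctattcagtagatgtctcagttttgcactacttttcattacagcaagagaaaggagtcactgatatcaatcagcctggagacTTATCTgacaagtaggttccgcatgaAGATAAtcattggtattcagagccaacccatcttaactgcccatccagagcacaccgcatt

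In Mcpt1 and Mcpt4 the same word, TGATAA, began 99 and 103 bases before the start site, and these promoters share a stretch of 53 bases letter for letter. A match to 1 of the 4 words began 79 bases before the start site in Cma1, 46 in Cpa3 and 92 in Fcer1a, and Ms4a2 held 3 matches, at 224, 37 and 11 bases before it. Of the 30 genes with the highest ratio of members over all other cells, 25 had an entry in the promoter table, and 19 of these 25 genes, 76.0%, held at least 1 such word. The same held for 33.0% of all 27025 genes in the table. This is a description: the 30 genes were picked by their levels, no test was made, and a match is not evidence of binding. Those without an entry included Mcpt2, Tpsb2, Tpsab1 and Serpinb1a.

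Members were found in all 6 barcode sets, but not evenly. Sets 1 to 6 held 14, 37, 3, 15, 4 and 5 members. As a share of each set's kept cells this came to 0.485%, 1.67%, 0.361%, 0.397%, 0.148% and 0.371%, in that order. Set 2 held 47.4% of all members, and its interval of 1.18 to 2.30% did not overlap that of any other set, the highest of which reached 1.05%. Without set 2 the share of members was 0.355%. The basophil-side cells came 1 each from sets 1, 2 and 3.

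**Figure D1:**
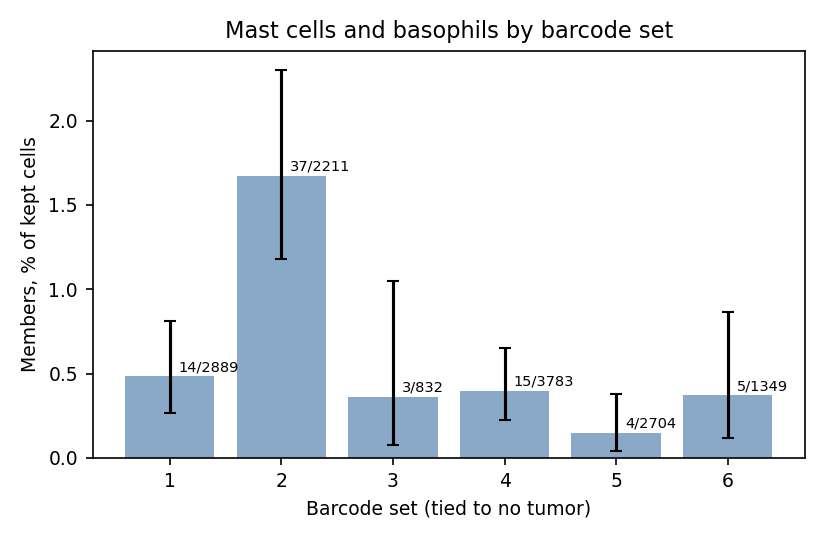
Members as a percent of kept cells in each of the 6 barcode sets; bars are shares, whiskers exact 95% binomial intervals for counting error, and labels give members over kept cells. Set 2 stands at 1.67% and the other sets between 0.148% and 0.485%.

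The members held 271565 UMIs. Their median was 2444.5 UMIs per cell (877 to 24563), against 8450.5 in all other kept cells, 2584 in 1263 macrophages with C1q genes, 2610.5 in 438 CD3 T cells and 3681 in 227 NK cells. The doublet caller scrublet called 0 members, and 1 member had a doublet score of at least 0.25. No barcode was shared between sets. The tag of its own set was the largest in all 78 members, and reached 90% of tag counts in 37 of them (47.4%), against 72.6% of all other cells and 31.1% of CD3 T cells.

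Granule proteases took a large share of the transcriptome of mast-side cells. The fixed list of granule proteases and granule matrix summed to 115055 CPM in members, 127355 CPM on the mast side and 11095 CPM on the basophil side, against 263 CPM in all other cells. In single mast-side cells granule proteases took a median of 11.9% of the cell's UMIs and at most 39.2%. Of 13 tested genes of the list, 12 were at least 2-fold higher in members than in all other cells and 0 at least 2-fold lower (5 CPM added to both). Over all 14477 genes with at least 50 UMIs, 5.12% were at least 2-fold higher and 19.8% at least 2-fold lower, and the median ratio was 0.787. Members were chosen partly by Cpa3 and Mcpt8, so this list is not independent of the rule.

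Mcpt2, a mucosal mast cell chymase, was the highest of the proteases at 41084 CPM (11157 UMIs), against 1.69 CPM in all other cells. Over the 73 mast-side cells it ran from 0 to 799 UMIs with a median of 87. Mcpt1, its close relative, stood at 23195 CPM and ran from 0 to 911 UMIs with a median of 7. The connective tissue type genes were more even. Cma1, a chymase, stood at 14693 CPM (1 to 166 UMIs, median 48), and Cpa3, carboxypeptidase A3, at 10962 CPM (5 to 127 UMIs, median 33). Mcpt4, another chymase, stood at 8668 CPM (0 to 117 UMIs, median 24), and Tpsb2, a tryptase, at 7239.5 CPM (2 to 91 UMIs, median 23). Every mast-side cell held Cma1, Cpa3 and Tpsb2, while 19 held no Mcpt1 and 4 no Mcpt2. Cma1, Mcpt4 and Tpsb2 help to set the mast side, and Cpa3 is a rule gene. Their presence and evenness over these cells are thus partly fixed by selection, while Mcpt1 and Mcpt2 chose no cells.

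**Figure D2:**
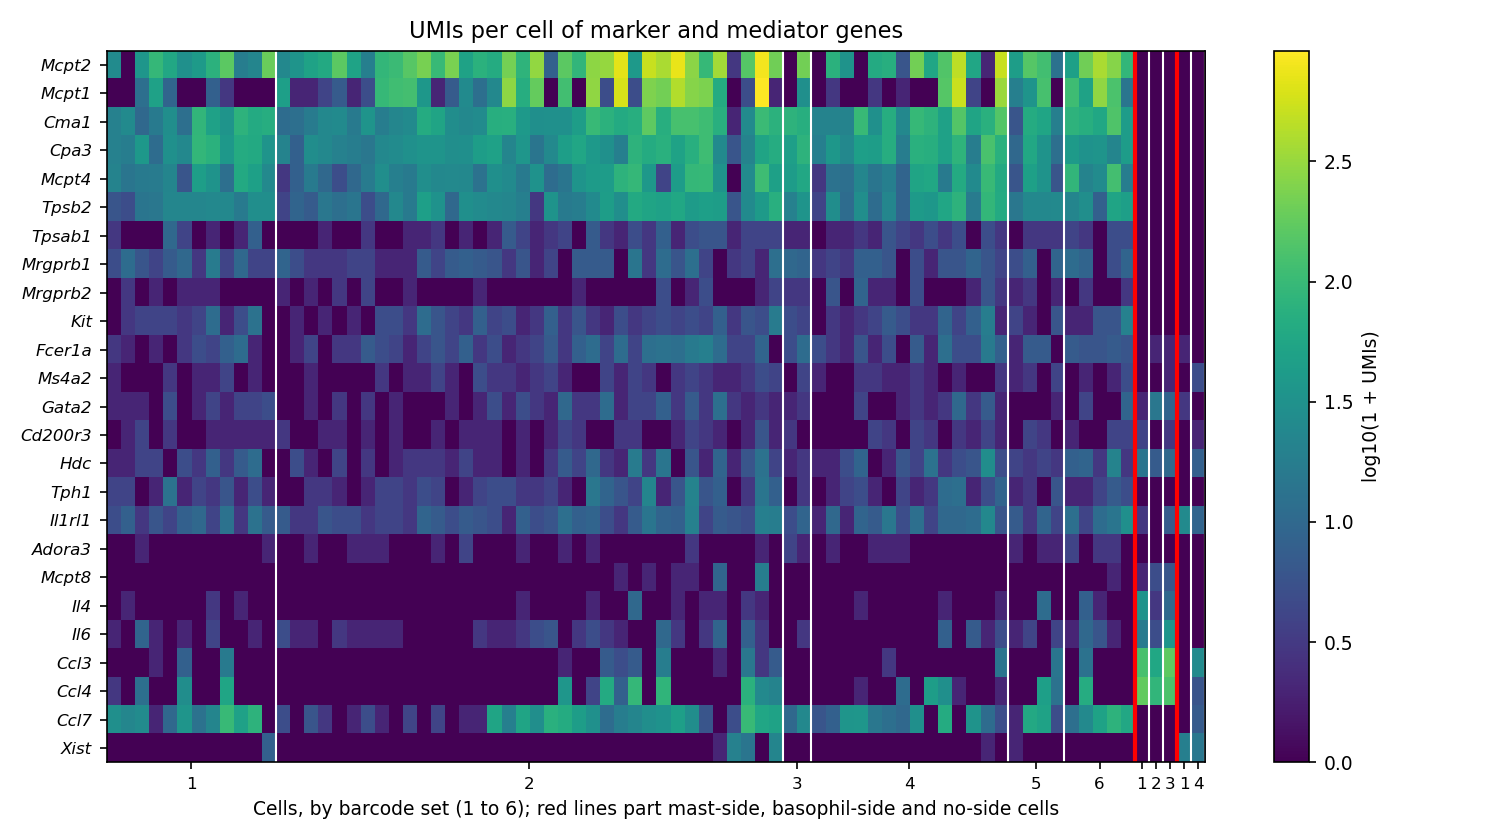
UMIs per cell, as log10(1 + UMIs), of 25 marker and mediator genes (rows) in the 78 members (columns), grouped by side and barcode set. Cma1, Cpa3 and Tpsb2 are present across all 73 mast-side cells, Mcpt1 is at 0 in 19 of them, and the 3 basophil-side cells hold Ccl3, Ccl4 and Il4 with 0 Cpa3. Cma1 and Tpsb2 help to set the mast side, and Cpa3 is a rule gene.

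Markers of both classic mast cell types were met in the same cells. UMIs of Mcpt2, Mcpt4 and Cma1 together were found in 68 of the 73 mast-side cells, and of Mcpt1 as well in 54. Mcpt4 and Cma1 are among the genes that set the mast side, so their part in these counts is partly fixed by that choice. Mcpt2 exceeded Mcpt1 in 58 cells and the reverse held in 11. Mcpt1 without Mcpt2 was seen in 0 cells, and Mcpt2 without Mcpt1 in 15. As a percent of the cell's UMIs, Mcpt1 ran from 0 to 15.9% (median 0.309%) and Mcpt2 from 0 to 18.0% (median 3.75%). The 5 cells richest in it gave 44.4% of all Mcpt1 UMIs.

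Mcpt1 and Mcpt2 varied together over cells. Taken per UMI of other genes over the 73 cells, the Spearman correlation of Mcpt1 was 0.77 with Mcpt2, 0.65 with Gzmb, 0.24 with Cma1, 0.22 with Mcpt4 and -0.06 with Cpa3. These are descriptions over cells that share a library and, in part, a set. Cma1, Mcpt1, Mcpt2, Mcpt4 and Gzmb lie in 1 cluster on chromosome 14 of GRCm38 (GENCODE vM21), with Cma1 at 55941451-55944675, Mcpt1 at 56017971-56020384, Mcpt2 at 56042041-56044642, Mcpt4 at 56059629-56062313 and Gzmb at 56258838-56262260. Since the chymases are related, the last 500 bases of their transcripts were cut into stretches of 50 bases and looked for in every other gene. None of the stretches of Mcpt1, Mcpt2, Gzmb or Mcpt8 occurred in another gene, 12.9% of those of Mcpt4 occurred in another gene, most often Cma2, and 12.4% of those of Cma1 in Gm48934. Counts of Mcpt4 and Cma1 are to that extent uncertain.

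**Figure D3:**
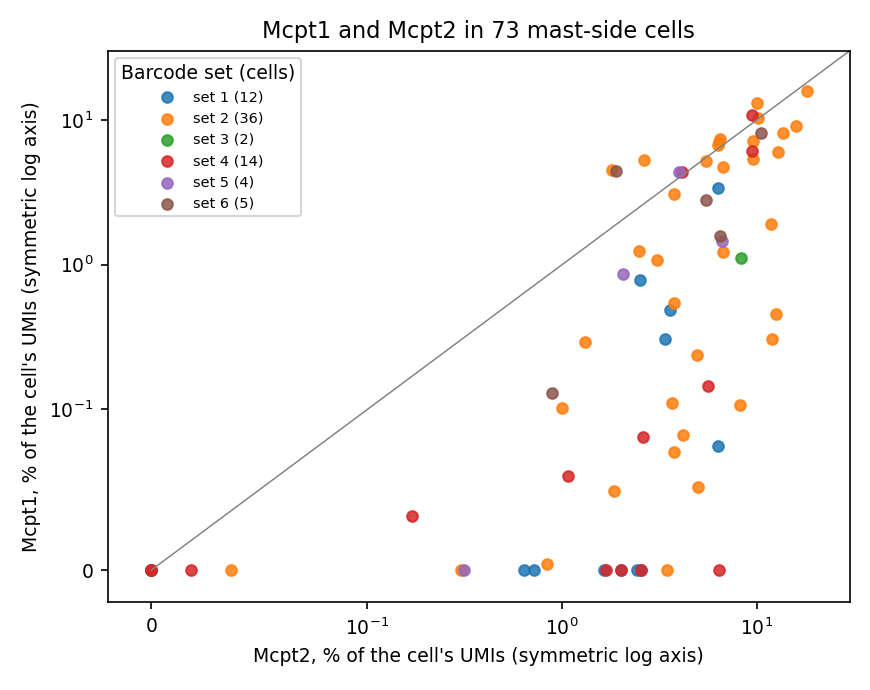
Mcpt1 against Mcpt2 in each of 73 mast-side cells, both as a percent of the cell's UMIs on symmetric log axes, coloured by barcode set; the grey line marks equal shares. In 58 cells Mcpt2 exceeds Mcpt1, and 15 cells lie at 0 Mcpt1 with some Mcpt2.

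The protease mix also differed by barcode set. In mast-side cells Mcpt1 stood at 2703 CPM in set 1 (12 cells), 33427 in set 2 (36 cells), 7223 in set 3 (2 cells), 22551 in set 4 (14 cells), 15926 in set 5 (4 cells) and 24724 in set 6 (5 cells). Mcpt1 was at 0 in 7 of the 12 cells of set 1 and in 3 of the 36 of set 2. Mcpt2 stood at 26399.9 CPM in set 1, 54616 in set 2, 53300 in set 3, 37585 in set 4, 28973 in set 5 and 40654 in set 6. Set 1 had the lowest level of both. The median UMIs of a mast-side cell were 1914.5 in set 1 and 2219.5 in set 2. Cpa3 ran the other way between these sets, at 17518 CPM in set 1 and 10067 in set 2. Without set 2, Mcpt1 in members stood at 13695 CPM in place of 23195.

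Gzmb, the cytotoxic protease granzyme B, was met at 1529 CPM in mast-side cells (1378 to 1693), between the levels of 1169 CPM in CD3 T cells and 2416 CPM in NK cells. It was present in 32 of 73 cells, at up to 65 UMIs. The cell with 65 is a set 2 cell that also held 71 UMIs of the B or plasma cell marker Mzb1. Over sets 1 to 6 Gzmb was present in 2 of 12, 22 of 36, 0 of 2, 4 of 14, 1 of 4 and 3 of 5 mast-side cells, with 3, 216, 0, 53, 14 and 88 UMIs. Srgn, the core protein of the proteoglycan that holds granule proteases, stood at 5387 CPM against 195 CPM in all other cells and was present in 76 of 78 members. Mcpt8 and Prss34, basophil proteases, held 40 UMIs in 10 members and 15 UMIs in 4. Of the 40 Mcpt8 UMIs, 10 lay in the 3 basophil-side cells and 30 in 7 mast-side cells, 17 of them in 1 cell of set 2, which also held 911 Mcpt1 UMIs. All 15 Prss34 UMIs lay in mast-side cells, 9 of them in 1 cell of set 4. Without set 2, Mcpt8 stood at 50.6 CPM in place of 147. Per UMI both genes together, which set the sides, stood at 1233 CPM in basophil-side and 184 CPM in mast-side cells.

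The receptor for IgE was measured in most members. Of its list of 17 genes, all tested, 14 were at least 2-fold higher in members and 1, Cd9, a tetraspanin, lower. Over all genes these shares were 5.12% and 19.8%. Fcer1a, the chain that binds IgE, stood at 1241 CPM (1112 to 1381) in 68 cells, and Ms4a2, the beta chain, at 342 CPM in 49 cells. Both belong to the rule. Over all members of sets 1 to 6, Fcer1a stood at 694, 1389.7, 2565, 1268, 1169.7 and 1120.05 CPM. In set 1, the basophil-side cell and the cell of neither side held 4879 and 12756 of 46120 UMIs, with 0 and 1 Fcer1a UMIs. Sets 1 to 4 hold such cells, so these values do not order mast-side cells. Fcer1g, the shared signaling chain, stood at 2964 CPM and was also high in macrophages (2560.5 CPM) and NK cells (2228 CPM). Lat2, an adaptor of that receptor, stood at 516 CPM against 14.5 CPM in all other cells, and Cd63, a granule membrane protein, at 4673 CPM against 1801 CPM.

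Kit, the stem cell factor receptor, is a gene of the mast side but not of the rule. It stood at 1002 CPM (886 to 1128) in members, and ran over 932, 932, 1197, 1132, 809.8 and 1286 CPM in sets 1 to 6. These values include members of sets 1 to 4 that were not mast-side, which held 0 Kit UMIs. Mrgprb1, a receptor of the Mas-related family, stood at 1274 CPM in 67 cells, and Mrgprb2, the receptor for basic peptides and drugs on mouse mast cells, at 250.4 CPM in 32 cells. After each cell was thinned to 1000 UMIs, which left out 3 shallower cells, 61.4% of mast-side cells held a Kit UMI (89.0% unthinned). The same thinned share was 0.419% in C1q macrophages, 1.93% in T cells and 5.38% in NK cells, of which the macrophages serve as background.

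Genes of small mediators were high. Of 11 tested genes for histamine and lipid mediators, 7 were at least 2-fold higher and 2 at least 2-fold lower. Over all genes these shares were 5.12% and 19.8%. Hdc, histidine decarboxylase, stood at 1164 CPM against 4.68 CPM in all other cells, and Slc18a2, which loads histamine and serotonin into granules, at 431 CPM against 0.627 CPM. Hdc was met in 63 of 73 mast-side cells and in all 3 basophil-side cells, with 13, 6 and 9 UMIs. Tph1, which makes the serotonin precursor, stood at 965 CPM, with 262 UMIs in 62 mast-side cells and 0 in the basophil-side cells. Gch1, the first enzyme of tetrahydrobiopterin synthesis and so of a cofactor of TPH1, stood at 921 CPM against 36.6 CPM in all other cells and was likewise at 0 in basophil-side cells. Alox5ap and Alox5, which start leukotriene synthesis, stood at 762 and 147 CPM, and Hpgds, the hematopoietic prostaglandin D synthase, at 191 CPM. Ptgs2, the inducible cyclooxygenase, was lower, at 394 CPM against 867 CPM.

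**Figure D4:**
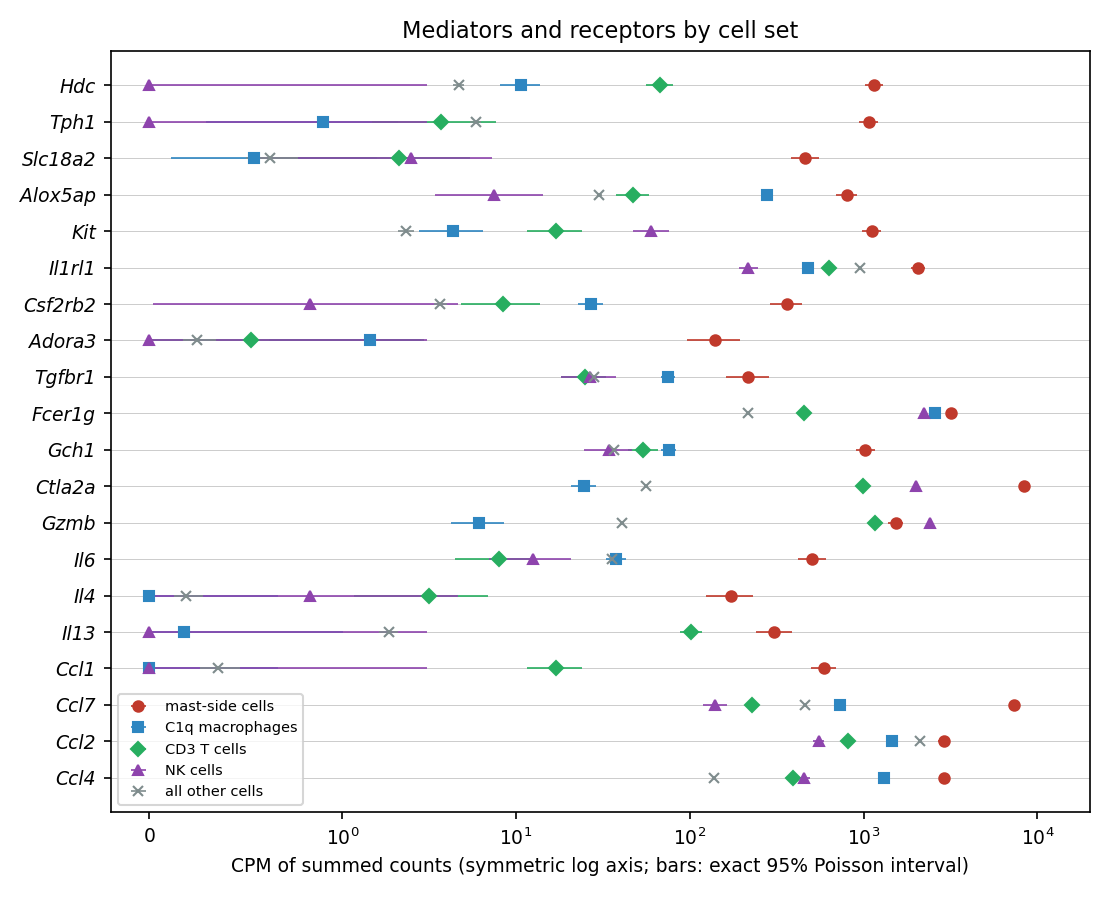
Levels of 20 mediator and receptor genes, as CPM of summed counts on a symmetric log axis with exact 95% Poisson intervals, in 73 mast-side cells, 1263 C1q macrophages, 438 CD3 T cells, 227 NK cells and all 13690 other cells. Hdc, Tph1, Slc18a2, Kit and Adora3 stand far to the right in mast-side cells, while Gzmb is higher in NK cells (2416 CPM) than in mast-side cells (1529 CPM).

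The 3 basophil-side cells, with 8112 UMIs in all, carried many cytokine and chemokine transcripts, most of which mast-side cells and macrophages carried too. They came from sets 1, 2 and 3 and held 4879, 1399 and 1834 UMIs. Il4, the cytokine of type 2 immunity, held 32, 2 and 9 UMIs in them, 43 of the 85 UMIs in all members (50.6%). The cell from set 1, with 32 of these Il4 UMIs, was placed on the basophil side by 1 Mcpt8 UMI and 0 mast-side UMIs. Ccl3 held 123, 57 and 165 UMIs and Ccl4, a related chemokine, held 175, 88 and 132 UMIs. Il6, an inflammatory cytokine, held 16, 4 and 34 UMIs. Cxcl2, a neutrophil attractant, held 377 UMIs over the 3 cells, Il1b 85, Ccl6 61 and Osm, oncostatin M, 24. The chemokine list as a whole came to 147559 CPM in these cells and 15916 CPM in mast-side cells. Values of Cxcl2, Il1b, Ccl6, Osm and this list pool the 3 cells and are not split by cell here. The set 1 cell gave 4879 of the 8112 pooled UMIs and also held 42 UMIs of macrophage markers.

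The 3 cells held 0 UMIs of Cpa3, Mcpt2, Mcpt1, Tph1, Ccl7 and Ccl2, and 23 UMIs of Gata2 (1, 14 and 8). The limit of 3 counts for a count of 0 is 369.8 CPM in their 8112 UMIs. The cell from set 1 also held 42 UMIs of macrophage markers, 13 of them C1qa, and 35 UMIs of Apoe, while the cells from sets 2 and 3 held 0 macrophage-marker UMIs. Their values of Ccl3, Ccl4, Il4 and Il6 stand beside those of the set 1 cell above, and the part of macrophage RNA in that cell was not tested. With 3 cells, the basophil side allows no statement on a typical basophil of these tumors.

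**Figure D5:**
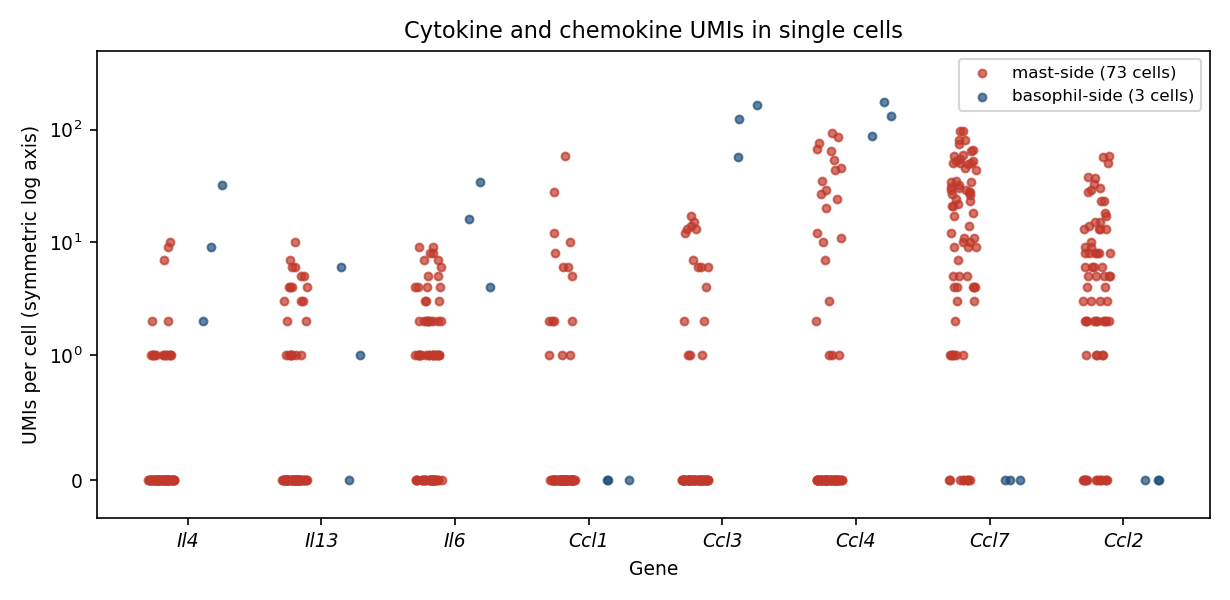
UMIs per cell of 8 cytokine and chemokine genes, on a symmetric log axis, in 73 mast-side cells (red) and 3 basophil-side cells (blue); each point is a cell. All 3 basophil-side cells lie at 57 or more UMIs of Ccl3 and 88 or more of Ccl4 but at 0 for Ccl1, Ccl2 and Ccl7, and mast-side cells reach 98 UMIs of Ccl7.

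Mast-side cells carried several chemokines, most of which other cells carried too. Ccl7, an attractant of monocytes, was the highest at 7316 CPM in mast-side cells, against 461 CPM in all other cells and 728 CPM in C1q macrophages. It ran from 0 to 98 UMIs per cell with a median of 17. Over all members of sets 1 to 6, Ccl7 stood at 8261, 5874, 5471, 5111, 10347 and 9251 CPM, so that no set lacked it. Sets 1 to 4 include members that were not mast-side, so these values do not order mast-side cells. In set 1, the basophil-side cell and the cell of neither side held 4879 and 12756 of 46120 UMIs and 0 Ccl7 UMIs. At 1000 UMIs per cell, 78.6% of mast-side cells held Ccl7, against 28.8% of macrophages and 4.93% of NK cells (87.7%, 41.9% and 13.7% unthinned). In all other cells the thinned share was 20.4% (42.6% unthinned). Thinned, Ccl3 was in 14.3% of mast-side cells and 23.9% of macrophages, and Ccl4 in 28.6% and 40.2%. Ccl2, its neighbour in function, stood at 2895 CPM in mast-side cells and 2110.3 CPM in all other cells. Ccl1, the ligand of CCR8, was met in 15 mast-side cells with 144 UMIs, 58 of them in 1 cell, and stood at 0 in macrophages. That 1 cell is the set 2 cell with 911 Mcpt1 UMIs, which also held 71 UMIs of the B or plasma cell marker Mzb1. Ccl1 in members stood at 238 CPM without set 2, in place of 530.3 CPM.

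Among cytokines, 7 of 19 tested genes were at least 2-fold higher in members and 0 at least 2-fold lower. Over all genes these shares were 5.12% and 19.8%. The cytokine list summed to 1836 CPM in mast-side cells, below the 2452 CPM of C1q macrophages, and to 29339 CPM in the basophil-side cells. That last sum includes the set 1 cell that also held macrophage markers. Il13, a type 2 cytokine, stood at 307 CPM in mast-side cells, against 101 CPM in CD3 T cells and 0.180 CPM in macrophages. Il4 stood at 172 CPM in mast-side cells, in 17 of 73 cells, and 3 of them held 7, 9 and 10 UMIs. Il6 stood at 507 CPM in mast-side cells, in 42 of 73 cells, against 37.7 CPM in C1q macrophages. Tnf, tumor necrosis factor, stood at 307 CPM in mast-side cells and 193 CPM in macrophages. Thinned to 1000 UMIs, 38.6% of mast-side cells held Il6 and 15.7% Il13, against 2.60% and 0 of macrophages (upper bound of the latter 0.309%). Il5 and Il9, type 2 cytokines, held 0 UMIs in members, where a limit of 3 counts for a count of 0 is 11.0 CPM.

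Receptors for growth factors and alarmins were measured widely. Of 22 tested cytokine receptor genes, 9 were at least 2-fold higher and 3 at least 2-fold lower, beside 5.12% and 19.8% of all genes. Il1rl1, the interleukin 33 receptor, was present in all 73 mast-side cells, at 1 to 29 UMIs with a median of 6, and stood at 2003 CPM in members. It was widespread outside them as well, at 953 CPM in all other cells. Il1rap, the chain it pairs with, stood at 7.36 CPM in members against 56.5 CPM in all other cells. The value in members lies below the limit of 3 counts, 11.0 CPM. Csf2rb and Csf2rb2, beta chains of the receptors for interleukin 3, interleukin 5 and GM-CSF, stood at 324 and 339 CPM, against 10.3 and 3.67 CPM in all other cells. In their last 500 bases, 9.69% and 8.87% of their stretches of 50 bases occur in another gene, so their counts are partly uncertain.

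Adora3, the adenosine A3 receptor and the target of an agent on the protocol's list, was met in 25 mast-side cells and in 0 basophil-side cells, at 1 to 3 UMIs. Over sets 1 to 6 it held 2, 14, 4, 4, 3 and 7 UMIs, or 43.4, 105, 684, 78.0, 269.9 and 290.4 CPM, with counts too small to order the sets. Thinned, 17.1% of mast-side cells held it (34.2% unthinned), against 0.251% of macrophages and 0 of 414 T cells (exact upper bound 0.887%). Tgfbr1, the target of galunisertib, stood at 195 CPM against 28.1 CPM in all other cells. As a list, the targets of listed agents summed to 589 CPM in members and 384 CPM in all other cells. This was below the 1006 CPM of C1q macrophages, 746 CPM of CD3 T cells and 779 CPM of NK cells. Of the 14 tested targets of listed agents, 2 (Adora3 and Tgfbr1) were at least 2-fold higher in members and 2 at least 2-fold lower. The lower ones were Ddx58, the RIG-I sensor, at 22.1 against 52.7 CPM, and Tnfrsf9, which encodes 4-1BB, at 11.0 against 28.9 CPM. Tnfrsf9 in members thus stood at the limit of 3 counts. Over all genes the shares were 5.12% and 19.8%, so the share of lower targets was no larger than that of all genes. Tmem173, which encodes STING, held 3 UMIs, Tgfbr2 29, Nploc4 5, Arg1 22 in 4 cells, Arg2 3 and Nos2 2, while Tlr7, Ido1, Ido2, Nos1 and Nos3 held 0, for which the limit of 3 counts is 11.0 CPM.

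Inhibitory and paired receptors were higher as a list, with 14 of 20 tested genes at least 2-fold higher and 0 lower. Over all genes these shares were 5.12% and 19.8%. Cd200r3, a rule gene and an activating relative of the CD200 receptor, stood at 306 CPM, and Cd200r4 at 272 CPM in 40 mast-side cells and 0 basophil-side cells. Lilrb4a, an inhibitory receptor, stood at 482 CPM with 17 of its 131 UMIs in basophil-side cells. Cd274, which encodes PD-L1, stood at 199 CPM against 21.5 CPM, and Cd33 at 139.9 CPM against 8.94 CPM. The list summed to 2012 CPM in mast-side cells and 1394 CPM in C1q macrophages.

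Of 29 tested transcription factors, 9 were at least 2-fold higher in members and 0 at least 2-fold lower. Over all genes these shares were 5.12% and 19.8%. The list summed to 7009 CPM in mast-side cells, below the 8577 CPM of C1q macrophages. Gata2, a rule gene, stood at 637 CPM against 2.96 CPM. Tal1, a partner of GATA factors, held 17 UMIs in 13 cells, and Mitf, which mast cells need to develop, 20 UMIs in 13 cells. Zeb2 stood at 619 CPM, near the 716 CPM of macrophages. The early response genes Jun, Egr1 and Nfkbia stood at 629.7, 644 and 965 CPM, with ratios between 0.888 and 1.33 over all other cells.

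Genes of the type I interferon response were low. Of 18 tested, 0 were at least 2-fold higher and 8 at least 2-fold lower, beside 19.8% of all genes. The list summed to 1539 CPM in members (1006 CPM without members holding 3 or more UMIs of other cell types' markers), 3721 CPM in all other cells, 4754 CPM in macrophages, 2709 CPM in T cells and 1609 CPM in NK cells. By barcode set it summed to 1149, 1127, 1026, 2478, 1709.6 and 2613 CPM in sets 1 to 6, lowest in sets 1 to 3. Ifitm3 stood at 626 CPM against 1935 CPM, Bst2 at 390.3 against 794 CPM and Isg15 at 247 against 283 CPM. Class II antigen presentation was low too, and of 11 tested genes of antigen presentation 4 (H2-Ab1, H2-Aa, H2-Eb1 and Cd74) were at least 2-fold lower and 1, Cd86, higher. The class I genes H2-K1 and H2-D1 stood at 987 and 482 CPM, with ratios of 1.03 and 0.927. Of 12 proliferation genes, 0 were at least 2-fold higher and 1, Top2a, lower, at 88.4 against 207 CPM. Of 15 tested genes of survival and integrins, 4 were at least 2-fold higher, among them Cd69 at 279.9 CPM and Itga2b, an integrin chain of platelets and mast cells, at 95.7 CPM, and 1, Ly6e, lower. Beside each of these lists, 5.12% of all genes were at least 2-fold higher and 19.8% at least 2-fold lower.

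Beyond the lists, Ctla2a, which encodes a small inhibitor of cysteine proteases, stood at 7512 CPM in 73 members, against 995 CPM in T cells and 2008 CPM in NK cells. Of its stretches of 50 bases, 29.8% occur in other genes. Serpinb1a, an inhibitor of serine proteases of granules, stood at 1466 CPM and was at 0 in basophil-side cells. Gm21190, Speer4e and Gm9758 stood at 637, 398 and 309 CPM in 37, 33 and 24 mast-side cells. Stretches of their ends occur in 23, 15 and 24 other genes, so these 3 counts cannot be given to 1 gene. Cyp11a1, which starts steroid synthesis, stood at 250.4 CPM in 42 cells. The 5 lowest genes by the naming rule were S100a11, S100a6, Cxcl1, Anxa1 and S100a10, with ratios of 0.215 to 0.267, led by S100a6 at 5402 CPM against 24573 CPM.

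Markers of other cell types were few but not absent. T cell, NK cell, dendritic cell and erythroid markers all stood at 0 UMIs, the eosinophil list held 1 UMI, the pericyte list 3 and the endothelial list 13. The T cell list includes Cd3d, Cd3e and Cd3g, which the member rule itself required to be at 0. The list for innate lymphoid cells held 660 UMIs, 544 of them Il1rl1 and 94 Areg, with 3 of its 7 genes at 0, and the hematopoietic progenitor list held 319, of which Kit gave 272. At least 3 UMIs were met for macrophage markers in 4 members, for fibroblast markers in 6, for neutrophil markers in 3, for epithelial markers in 5 and for B or plasma cell markers in 1. The last is the set 2 cell with 911 Mcpt1 UMIs, which held 71 Mzb1 UMIs, 998 of the 999 Igkc UMIs and all 218 Ighg3 UMIs of the members, so that Igkc and Ighg3 rest on 1 cell. A mast-side cell of set 6 held 109 macrophage-marker UMIs, 53 of them C1qa, beside 89 Mcpt2 UMIs. Xist reached 5 UMIs in 6 members, 4 of them mast-side, and both cells of neither side held it, at 18 and 14 UMIs. Those last 2 held 12756 and 6160 UMIs and 0 UMIs of the granule proteases. The first had 2 UMIs of Gata2 and 1 of Fcer1a, and the second 4 of Ms4a2, 1 of Cd200r3, 7 of Hdc and 26 of Ccl3. The part of these cells in the levels above was not tested beyond leaving some of them out. Leaving out members with 3 or more UMIs of macrophage, neutrophil, B or plasma, NK, endothelial or fibroblast markers left 64 members. The 41 gene levels then stood at 0.885 to 1.48 times those reported, with Mcpt2 at 58046.5 CPM in place of 41084. Of the lists, the interferon list alone moved by over 1.5 times. Epithelial markers were not part of that step.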

How the data were processed

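Droplet 3′ RNA sequencing was made from 6 tagged and pooled tumors (3 vehicle, 3 treated). The authors deposited 1 matrix of raw UMI counts for 32285 genes, 12 tags and 14818 cells (141434361 gene UMIs), and other columns of barcodes and gene names. Cell Ranger 7.1, Seurat and build mm10 are named per the submitters' processing notes, Seurat 4.1.0 in the series' design text, and Cell Ranger 7.0.0 per the file headers. Filters before deposit are not given in the sources used here.

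The 78 cells were treated as 1 sample, since no label ties cells to tumors; no p-value was computed, and barcode sets are single values. Levels are counts summed over cells as CPM with exact 95% Poisson intervals, and shares have exact 95% binomial intervals (scipy 1.17.1, numpy 2.4.6). The ratio adds 5 CPM to both sides and was tested on simulated data of 32285 genes, 200 of them changed. There, 4.99% of the unchanged genes with at least 50 UMIs came out at least 2-fold higher or lower. The simulated counts were pooled Poisson draws with no spread between cells. Scrublet (scanpy 1.11.5, expected doublet rate 6%) called 21 of the kept cells, so doublets may remain. C1q macrophages held 3 or more UMIs of C1q genes, CD3 T cells and NK cells 2 or more of theirs.

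The members, gene lists and rules were chosen with earlier results of these data known. Named genes are the 30 highest and 5 lowest ratios, the 15 highest of each side, up to 6 per list by CPM with at least 20 UMIs, the rule's genes and the agents' targets. Gzmb, Srgn, Prss34, Cma2, Gm48934, Mzb1, C1qa, Xist, Tal1, Mitf, Il5, Il9, Il1rap, Cd86 and the class II genes were named after their values were seen. A gene that the rule names is not reported here. Alternatives changed the marker rule, cell filter, doublet limit, barcode sets, members with other cells' markers, weighting and Xist.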

Additional observations from a re-analysis of the deposited data

Results flagged for a closer look

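The share of members in barcode set 2, 1.67% of its kept cells, stood apart from the other sets, with a gap of 0.779 of the whole range to the next value, above Dixon's 95% critical value for 6 values. In mast-side cells Mcpt4 in set 3, at 24907 CPM, and Cma1 in set 3, at 38107 CPM, stood apart in the same way, with gaps of 0.816 and 0.697 of the range, and both rest on 2 cells. The barcode sets belong to no group, 7 such sets of values were looked at, and chance alone marks about 1 in 20.

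Cells that met the marker rule were also found below the cell filter. Of 1050 cells left out, 23 met the marker rule, 2.19% (1.39 to 3.27%), against 0.567% of kept cells. All 23 had under 500 genes, with a median of 895 UMIs and 436 genes, and 16 were mast-side. Mcpt2 stood at 36120 CPM and Cma1 at 9334 CPM in these 23 cells. The kept cells therefore leave out part of the small cells of this kind.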

How the results depend on the processing

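The share of members was 0.362% under a filter for 1000 or more genes and less than 10% mitochondrial counts, which left 43 members, outside the interval of the reported 0.567%. It ran from 0.355% to 0.669% over the 6 fits that left out a barcode set, lowest without set 2. Calling a side only where the other sum was 0 gave a mast-side share of 79.5% in place of 93.6%. The mast-side share ran from 88.1% to 97.2% under the other settings. A wider filter (at least 200 genes, under 25% mitochondrial) gave 101 members with 6 basophil-side cells and raised Ccl4 to 6334 CPM from 4098. Of 15 gene lists, 12 to 14 were higher in members than in other cells under every setting run (13 as reported). These 15 include the list of the rule's own genes, and some of the others hold rule genes. The count is therefore partly fixed by the member rule. Of 41 gene levels, those moved by over 1.5 times were, without set 2, Mcpt1, Il4, Ccl3, Mcpt8 and Ccl1; with each cell weighing the same, Mrgprb1, Cd200r4 and Adora3 (194 CPM); with mast-side cells alone, added after seeing the data, Il4 and Ccl3 (491 CPM); and Ccl4 under the wider filter. Of the 15 lists, the interferon list fell to 1006 CPM without members holding other cells' markers, and the cytokine list to 1836 CPM with mast-side cells alone. Leaving out members with 5 or more Xist UMIs, also added after seeing the data, left 72 members. No paired analysis was possible because no label ties cells or barcode sets to replicate numbers, and the comparison of treated with vehicle tumors was not run. At the median of 2444.5 UMIs, a gene at 0 in a member may be unsampled.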
